A study of Mus musculus with 17 samples.

Results

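Chromatin remodeling complexes are built around a motor subunit that burns ATP to move nucleosomes, and around accessory subunits that have no ATPase of their own. Described here are 41 genes for accessory subunits in mouse mammary epithelial cells that were made to express a dominant-negative motor. They were taken by gene symbol from a list of complex members drawn up with earlier results of these data known, and the rule itself uses no measured value: 20 genes of SWI/SNF complexes, 12 of NuRD and 9 of ISWI complexes. All 41 were among the 19938 genes measured, and each is represented by its probe set of highest mean signal.

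As background, accessory subunits hold a complex together, recognise modified histones or DNA, and decide which version of a complex is assembled. SWI/SNF complexes open chromatin and come in forms marked by Arid1a or Arid1b, by Arid2 and Pbrm1, or by Brd9. NuRD joins remodeling to histone deacetylation through Hdac1 and Hdac2, and ISWI complexes space nucleosomes, with a large partner protein such as Baz1a, Baz1b, Baz2a, Rsf1 or Bptf giving each form its role. Many of these subunits are encoded by paralogous genes that replace each other in the complex.

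The cells were 3134 cells, a mouse mammary line, and every line carried a tetracycline-regulated transactivator. In addition, 3 of the 4 lines held a stably integrated, Flag-tagged dominant-negative gene: dnBrg1 (Brg1, gene Smarca4, is a SWI/SNF motor), dnChd4 (Chd4 is a NuRD motor) or dnSnf2h (Snf2h, gene Smarca5, is an ISWI motor). Induced cells were grown for 48 h without tetracycline and so made the transactivator and the dominant-negative protein, while repressed cells were grown for 48 h with tetracycline. Induced cells of the control line made the transactivator alone. Stocks of all lines were kept in 5 µg/ml tetracycline, and the labels name no deletion of the cells' own remodeler genes. Each dominant-negative line had 2 induced and 2 repressed arrays, and the control line had 3 induced and 2 repressed arrays, 17 Affymetrix Mouse Gene 1.0 ST arrays in all. The labels do not say whether a line is 1 clone or whether replicates were separate cultures, so the p-values cover the spread of these arrays alone, and that spread may be technical. The question put to the accessory subunits is whether induction of each dominant-negative motor changes their RNA, and whether the 3 inductions differ.

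Values are log2 signals as the authors deposited them. A change is the mean of the induced arrays minus the mean of the repressed arrays of the same line, SE is its standard error, and a gene passed at a limma adjusted p under 0.05 over all 19938 genes. The words rose and fell are used only of genes that passed. Of the control libraries, a pair went against their labels. Across genes, replicate 1 of those labelled control repressed was nearest to an induced array (replicate 2; r = 0.9953), and replicate 1 of those labelled control induced was nearest to a repressed array (replicate 2; r = 0.9945). The dominant-negative comparisons were therefore fitted on the 12 arrays of the 3 dominant-negative lines, and values that use the control line are given with all 17 arrays and with 15, without these libraries. Both dnSnf2h repressed arrays and dnSnf2h induced replicate 2 correlated best with a dnChd4 array of the same treatment. The mammary epithelial label was not borne out by every defining marker: of 11 markers, Epcam lay under the 4.77 that bounds the dimmest 30% of genes in all 17 arrays (3.94 to 4.32), and Krt8 (5.81 to 6.62) and Krt14 (5.74 to 9.02) lay above the highest array median, 5.63, in all 17. The other 8 met neither bound in all 17, with Krt18 at 5.46 to 5.91 and Cdh1 at 5.04 to 5.48, and the mesenchymal marker Vim read 12.29 to 13.16. Krt8, Krt18, Cdh1, Epcam and Vim were chosen after their values were seen.

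The Chd4 probe set read 12.27 and 12.27 in induced dnChd4 arrays, against 10.56 and 10.35 in repressed dnChd4 arrays, a rise of 1.82 (SE 0.114; limma adjusted p = 1.43e-07). Smarca4 changed by 0.12 in dnBrg1 cells (SE 0.113; limma adjusted p = 0.615) and Smarca5 by -0.24 in dnSnf2h cells (SE 0.118; limma adjusted p = 0.209), so neither probe set checks its line's label. Whether these probe sets match the integrated genes is not given in the sources used here.

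Averaged over the 3 dominant-negative lines, 19 of the 41 accessory subunit genes passed on induction, 10 higher and 9 lower, where 30.5% of all genes passed (16.8% higher, 13.6% lower). Hdac1, the NuRD deacetylase, rose most, by 0.50, and Phf10, a SWI/SNF subunit that reads histone marks, fell most, by 0.54. No complex moved as a block. In SWI/SNF 3 of 20 genes rose and 3 fell, with a median change of -0.07. In NuRD 2 of 12 rose and 4 fell, with a median of -0.09, and in ISWI 5 of 9 rose and 2 fell, with a median of 0.20. The median over all genes was -0.03. All but 1 member lie outside the dimmest 30% of genes, and with those genes left out of the fit 20 of 40 members and 43.6% of genes passed. In RNA from whole cultures, fewer cells that express a gene and less RNA per cell cannot be told apart.

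Within single lines the counts lay close to the share for all genes. In dnBrg1 cells 5 members passed (2 rose, 3 fell), 12.2% of the members, against 14.2% of all genes (8.01% higher, 6.22% lower). In dnChd4 cells 9 passed (4 rose, 5 fell), 22% against 18.0% (11.2% higher, 6.82% lower). In dnSnf2h cells 7 passed (4 rose, 3 fell), 17.1% against 17.5% (9.2% higher, 8.34% lower). Hdac1, Actl6a and Baz1b, 3 members in all, passed in each of the 3 lines, where 7.74% of all genes did, and 13 members passed in at least 1 line, where 27.0% of all genes did. With the 5 control arrays in the estimate of the spread, 0 members passed in dnBrg1 (0.341% of all genes), dnChd4 (0.0953%) or dnSnf2h cells (0.00502%). In the mean induction 3 members passed with 17 arrays, where 8.14% of all genes did: Smarcc1 (limma adjusted p = 0.0399), Baz1b (limma adjusted p = 0.0497) and Baz1a (limma adjusted p = 0.0311). The changes themselves are the same in both fits.

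**Figure D1:**
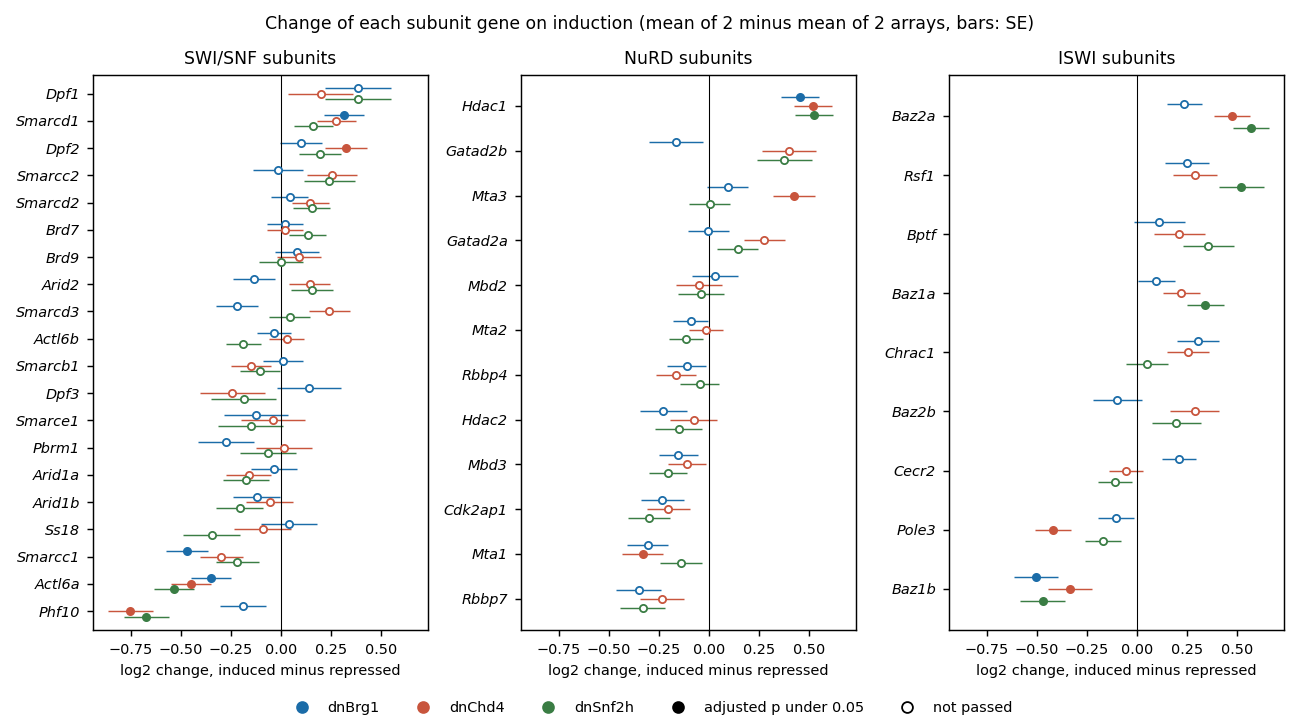
Change of each of the 41 accessory subunit genes on induction, in log2 units (x axis, induced minus repressed), for dnBrg1, dnChd4 and dnSnf2h cells, by complex; points are differences of 2 induced and 2 repressed arrays, bars are SE, and filled points passed at a limma adjusted p under 0.05. Hdac1, Actl6a and Baz1b have 3 filled points each, and Phf10 lies at -0.75 in dnChd4 and -0.67 in dnSnf2h cells but at -0.19, unfilled, in dnBrg1 cells.

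Of the members that moved together on induction, the sequence upstream of the start site is shown for the 3 fallers and the riser of smallest adjusted p in the mean induction among those with a RefSeq promoter entry (31 of the 41 members; Hdac1 has none). The fallers are Phf10 at chr17:14961261-14961510 (minus strand), Actl6a at chr3:32708296-32708545 (plus strand) and Baz1b at chr5:135187073-135187322 (plus strand), and the riser is Baz2a at chr10:128092533-128092782 (plus strand), all on GRCm38.p6. Each runs 5′ to 3′ over the 250 bases before the start site that the RefSeq table gives, with motif matches in capitals. The windows of Actl6a and Baz1b abut the gene's listed start, and that of Phf10, on the minus strand, abuts its listed end. The window of Baz2a lies inside the gene's listed span (chr10:128091370-128129303), downstream of the outermost start.
Phf10: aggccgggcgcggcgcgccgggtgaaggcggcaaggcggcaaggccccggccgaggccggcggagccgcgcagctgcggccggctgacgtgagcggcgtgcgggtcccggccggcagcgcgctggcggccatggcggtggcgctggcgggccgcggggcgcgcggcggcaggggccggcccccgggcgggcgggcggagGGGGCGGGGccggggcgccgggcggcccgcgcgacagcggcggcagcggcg
Actl6a: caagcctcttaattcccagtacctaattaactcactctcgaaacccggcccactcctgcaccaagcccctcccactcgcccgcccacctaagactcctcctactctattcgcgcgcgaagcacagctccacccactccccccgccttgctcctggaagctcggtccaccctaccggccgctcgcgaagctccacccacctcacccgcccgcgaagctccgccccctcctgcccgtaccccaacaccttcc
Baz1b: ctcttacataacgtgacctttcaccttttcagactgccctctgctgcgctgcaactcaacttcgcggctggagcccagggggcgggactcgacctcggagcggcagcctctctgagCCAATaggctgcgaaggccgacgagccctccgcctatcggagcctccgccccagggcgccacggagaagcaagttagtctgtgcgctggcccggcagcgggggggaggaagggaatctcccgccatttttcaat
Baz2a: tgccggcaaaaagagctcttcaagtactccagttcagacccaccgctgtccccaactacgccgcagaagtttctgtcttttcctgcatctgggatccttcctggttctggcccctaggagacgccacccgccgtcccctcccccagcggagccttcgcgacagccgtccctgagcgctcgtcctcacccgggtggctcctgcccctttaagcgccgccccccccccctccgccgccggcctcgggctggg
The capitals mark a GC box (GGGGCGGGG) from 51 to 43 bases before the Phf10 start and a CCAAT box (CCAAT) from 134 to 130 bases before the Baz1b start, and neither Actl6a nor Baz2a holds a match to any motif searched. By base composition the Phf10 window is 88.4% G and C, the others 64.8% (Actl6a), 63.6% (Baz1b) and 67.2% (Baz2a). The median is 67.2% for members, each gene taken at the mean of its windows, and 52.4% for all 32851 windows, each counted.

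Both strands of the 250 bases were searched for motifs known from promoters of cell cycle and housekeeping genes, none of which contains another. Members and listed genes are counted by gene, with a match in any window of the gene. The share of all windows counts every window, so the units differ. CCAAT was found in 12 of 31 members and in 33.8% of all windows. It was found in 4 of the 9 members that fell in the mean induction (Baz1b, Cdk2ap1, Mbd3 and Rbbp7). Of the 10 that rose, 5 have a window, and 2 of these held it (Dpf1 and Dpf2). The GC box was found in 6 of 31 members and in 10.4% of all windows. An E2F site (TTTCCCGC, TTTCGCGC, TTTGCCGC or TTTGGCGC) was found in 3 of 31 members (Arid1a, Brd7 and Smarcd1) and in 1.86% of all windows. The cell cycle homology region (TTTGAA) was found in 0 of 31 members and in 16.0% of all windows. Among 23 S phase and mitosis genes with a window, 19 held CCAAT, 6 held TTTGAA and 5 an E2F site. A match describes these letters only.

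In SWI/SNF the members that fell were Phf10, Actl6a and Smarcc1, and those that rose were Smarcd1, Dpf2 and Dpf1. Phf10 encodes the plant-homeodomain subunit of the form with Arid2 and Pbrm1. It read 8.81 and 8.77 in induced dnBrg1 arrays, against 9.10 and 8.85 in repressed ones. In dnChd4 cells Phf10 read 8.85 and 8.87 induced, against 9.50 and 9.72 repressed, and in dnSnf2h cells 8.52 and 8.74 induced, against 9.26 and 9.35 repressed. Induced arrays were below repressed arrays in every line without overlap, by a wide gap in dnChd4 and dnSnf2h cells and a narrow one in dnBrg1 cells. Phf10 fell by 0.75 in dnChd4 cells (SE 0.113; limma adjusted p = 0.000282) and by 0.67 in dnSnf2h cells (SE 0.113; limma adjusted p = 0.000725), and changed by -0.19 (SE 0.113) in dnBrg1 cells without passing. Its mean fall was 0.54 (SE 0.065; limma adjusted p = 1.24e-05), to 0.689 of the repressed level. Arrays labelled control induced read 9.84, 8.89 and 8.66, against 8.93 and 9.70 in those labelled control repressed, a change of -0.18 with 17 arrays and -0.92 with 15 arrays.

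Actl6a encodes an actin-related protein that SWI/SNF shares with the INO80 and TIP60 complexes and that neural cells replace with Actl6b. It read 8.94 and 8.97 in induced dnBrg1 arrays, against 9.27 and 9.34 in repressed ones. In dnChd4 cells Actl6a read 9.23 and 9.19 induced, against 9.64 and 9.68 repressed, and in dnSnf2h cells 9.01 and 9.23 induced, against 9.58 and 9.73 repressed. The groups did not overlap in any of the 3 lines, and the induced arrays were the lower ones. Actl6a fell by 0.35 in dnBrg1 (limma adjusted p = 0.0275), by 0.45 in dnChd4 (limma adjusted p = 0.00483) and by 0.53 in dnSnf2h cells (limma adjusted p = 0.00151), and in the mean by 0.44 (SE 0.057; limma adjusted p = 2.23e-05). The dnBrg1 call was lost without any 1 of the 4 dnBrg1 arrays, and the dnChd4 call without dnChd4 repressed replicate 2. Median centring also lost the dnBrg1 call. The control change was -0.12 with 17 arrays and -0.74 with 15 arrays.

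Smarcc1 encodes a scaffold subunit on which SWI/SNF assembles. It read 9.32 and 9.41 in induced dnBrg1 arrays against 9.91 and 9.75 in repressed ones, and 9.21 and 9.22 in induced dnChd4 arrays against 9.49 and 9.54 in repressed ones. In dnSnf2h cells it read 9.20 and 9.37 induced against 9.38 and 9.62 repressed. Induced arrays were lower in each line, and the groups nearly touched in dnSnf2h cells. Smarcc1 fell by 0.47 in dnBrg1 cells (SE 0.106; limma adjusted p = 0.00764) and by 0.33 in the mean (SE 0.061; limma adjusted p = 0.000632), while the changes of -0.30 in dnChd4 and -0.22 in dnSnf2h cells did not pass. The dnBrg1 call was lost without dnBrg1 repressed replicate 1 or induced replicate 1. The mean call held under every alternative tried. In the fit with the control arrays, these entered the estimate of the spread alone, and the control change was not subtracted. Arrays labelled control induced read 9.48, 8.97 and 9.16 for Smarcc1, against 9.26 and 9.47 in those labelled control repressed. Without the pair that went against their labels, that is 8.97 and 9.16 against 9.47. Its paralog Smarcc2 changed by -0.01, 0.25 and 0.24 in dnBrg1, dnChd4 and dnSnf2h cells without passing.

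Smarcd1, of a family of subunits that link the complex to transcription factors, read 8.08 and 8.01 in induced dnBrg1 arrays, against 7.78 and 7.68 in repressed ones. Smarcd1 read 7.95 and 7.83 in induced dnChd4 arrays, against 7.63 and 7.60 in repressed ones, and in dnSnf2h cells 7.66 and 7.83 induced, against 7.52 and 7.65 repressed. The induced arrays were the higher ones in each line, narrowly in dnSnf2h cells. Smarcd1 rose by 0.31 in dnBrg1 cells (SE 0.098; limma adjusted p = 0.0443), a call lost without any 1 dnBrg1 or dnChd4 array or with the replicate block, and by 0.25 in the mean (SE 0.056; limma adjusted p = 0.00278). Its paralogs Smarcd2 (mean change 0.11) and Smarcd3 (0.02) did not pass, and Smarcd3 changed by -0.22 in dnBrg1 and 0.24 in dnChd4 cells. Of the Dpf subunits, which carry paired plant-homeodomain fingers, Dpf2 rose by 0.21 in the mean and by 0.32 in dnChd4 cells, and Dpf1, known from neurons, rose by 0.32 in the mean. The Dpf1 signal was low, 5.24 to 6.03 over the dominant-negative arrays, where array medians ran from 5.48 to 5.63. Its repressed dnBrg1 arrays read 5.30 and 5.80. The dnChd4 call of Dpf2 was lost without any 1 dnChd4 array or any 1 dnBrg1 induced array, and with the replicate block or median centring. The mean calls were lost without dnBrg1 repressed replicate 2, dnBrg1 induced replicate 1, dnChd4 repressed replicate 2 or dnChd4 induced replicate 1 for Dpf2, and without dnBrg1 repressed replicate 1 or dnSnf2h induced replicate 1 for Dpf1.

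The other 14 SWI/SNF members passed in no induction. These include the defining subunits of each form, with mean changes of -0.12 for Arid1a, -0.13 for Arid1b, 0.05 for Arid2, -0.11 for Pbrm1 and 0.06 for Brd9, and the core subunit Smarcb1 at -0.08. Ss18, a subunit known from its fusion in human synovial sarcoma, lay farthest from 0 among them in a single line, at -0.35 in dnSnf2h cells (SE 0.142). Arid1a, Arid1b, Arid2, Pbrm1, Brd9 and Smarcb1 were chosen after their values were seen.

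In NuRD the members that rose were Hdac1 and Mta3, and those that fell were Rbbp7, Mta1, Cdk2ap1 and Mbd3. Hdac1 read 10.83 and 10.84 in induced dnBrg1 arrays, against 10.46 and 10.30 in repressed ones. In dnChd4 cells it read 10.98 and 11.02 induced, against 10.50 and 10.47 repressed, and in dnSnf2h cells 10.89 and 11.05 induced, against 10.40 and 10.50 repressed. All 6 induced arrays were above all 6 repressed arrays of the 3 lines. Hdac1 rose by 0.46 in dnBrg1 (SE 0.096; limma adjusted p = 0.0049), by 0.52 in dnChd4 (limma adjusted p = 0.00141) and by 0.52 in dnSnf2h cells (limma adjusted p = 0.00144), and by 0.50 in the mean (SE 0.056, 1.41-fold; limma adjusted p = 5.53e-06). The dnBrg1 call was lost without dnBrg1 repressed replicate 2. A second Hdac1 probe set changed by 0.48, 0.51 and 0.56 in the same order of lines. Arrays labelled control induced read 10.41, 11.38 and 11.29, against 11.24 and 10.59 in those labelled control repressed, a change of 0.11 with 17 arrays and 0.74 with 15 arrays.

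Its paralog Hdac2, which can take the place of Hdac1 in the complex, changed by -0.23 in dnBrg1, -0.08 in dnChd4 and -0.15 in dnSnf2h cells and did not pass. Within each array the log2 difference Hdac1 minus Hdac2 was higher in induced than in repressed arrays, by 0.68, 0.60 and 0.68, with no overlap in any of the 3 lines. Such a difference shows unequal change of the 2 genes, and not that Hdac2 stayed as it was.

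Rbbp7, a histone-binding protein that NuRD shares with other complexes, read 10.84 and 10.76 in induced dnBrg1 arrays, against 11.31 and 11.0 in repressed ones. In dnChd4 cells it read 10.94 and 10.88 induced, against 11.12 and 11.17 repressed, and in dnSnf2h cells 10.62 and 10.83 induced, against 11.10 and 11.01 repressed. Induced arrays were lower in each line without overlap. Rbbp7 fell by 0.30 in the mean (SE 0.065; limma adjusted p = 0.00177), and of all members it was nearest to passing in dnBrg1 cells (-0.35; limma adjusted p = 0.0501) and in dnSnf2h cells (-0.33; limma adjusted p = 0.0564). Its paralog Rbbp4 had a mean change of -0.11 and did not pass.

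The Mta proteins bind the deacetylase and come from 3 paralogous genes, of which 1 fell and 1 rose. Mta1 read 9.09 and 9.12 in induced dnBrg1 arrays against 9.54 and 9.29 in repressed ones, and 9.03 and 8.96 in induced dnChd4 arrays against 9.40 and 9.25 in repressed ones. In dnSnf2h cells it read 9.06 and 9.11 induced, against 9.17 and 9.28 repressed. The induced arrays were the lower ones in every line. Mta1 fell by 0.33 in dnChd4 cells (SE 0.103; limma adjusted p = 0.0371) and by 0.26 in the mean (SE 0.060; limma adjusted p = 0.00334), and the dnChd4 call was lost without any 1 dnChd4 array or any 1 dnBrg1 induced array, and with median centring. Mta3 rose by 0.42 in dnChd4 cells (SE 0.103; limma adjusted p = 0.0091) and by 0.17 in the mean (SE 0.060; limma adjusted p = 0.0382), but its second probe set, with a mean signal of 5.25, changed by -0.14 in dnChd4 cells, so its rise rests on 1 probe set. Both Mta3 calls were lost with probe sets averaged, and the mean call also with median centring. The dnChd4 call was also lost without dnChd4 induced replicate 2 or either dnChd4 repressed array, and the mean call without any 1 array other than dnBrg1 repressed replicate 1, dnSnf2h repressed replicate 2 and dnSnf2h induced replicate 1. Mta2 changed by between -0.11 and -0.01 and did not pass.

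Cdk2ap1, a small NuRD-associated protein named for its binding to a cell cycle kinase, read 10.26 and 10.16 in induced dnBrg1 arrays, against 10.46 and 10.42 in repressed ones. Cdk2ap1 read in dnChd4 cells 10.30 and 10.41 induced against 10.56 and 10.56 repressed, and in dnSnf2h cells 10.15 and 10.23 induced against 10.34 and 10.64 repressed. No induced array of a line reached a repressed one. Cdk2ap1 fell by 0.24 in the mean (SE 0.061; limma adjusted p = 0.00576). Mbd3, the NuRD scaffold of the methyl-CpG-binding family, fell by 0.16 (SE 0.055; limma adjusted p = 0.0442), a call lost without any 1 array other than dnBrg1 repressed replicate 1, dnChd4 repressed replicate 1 and dnSnf2h repressed replicate 2, and Mbd2, its paralog that does bind methylated DNA, changed by -0.02. The Mbd3 call was also lost with the replicate block, array weights or median centring. Gatad2b, which bridges the deacetylase and the motor, came nearest to passing among the rest, with a mean change of 0.20 (limma adjusted p = 0.0614). By line it changed by -0.17, 0.40 and 0.38 in dnBrg1, dnChd4 and dnSnf2h cells, and its paralog Gatad2a by -0.004, 0.28 and 0.14.

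In ISWI the members that rose were Baz2a, Rsf1, Baz1a, Bptf and Chrac1, and those that fell were Baz1b and Pole3. Baz2a, the large subunit of the nucleolar complex NoRC that silences ribosomal DNA, read 8.61 and 8.53 in induced dnBrg1 arrays, against 8.33 and 8.33 in repressed ones. In dnChd4 cells it read 8.43 and 8.43 induced, against 7.92 and 7.99 repressed, and in dnSnf2h cells 8.48 and 8.50 induced, against 7.97 and 7.87 repressed. Induced arrays were above repressed arrays of the same line in each case, and replicates lay close together. Baz2a rose by 0.57 in dnSnf2h (SE 0.089; limma adjusted p = 0.000402), by 0.48 in dnChd4 (limma adjusted p = 0.00145) and by 0.43 in the mean (SE 0.051; limma adjusted p = 1.1e-05), while the 0.24 of dnBrg1 cells did not pass. The control change was 0.25 with 17 arrays and 0.96 with 15 arrays. Baz2b, its paralog, changed by -0.10, 0.29 and 0.20 in dnBrg1, dnChd4 and dnSnf2h cells without passing.

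Baz1b, the WSTF subunit of the WICH complex that follows replication forks, read 9.79 and 9.81 in induced dnBrg1 arrays, against 10.36 and 10.24 in repressed ones. In dnChd4 cells it read 9.71 and 9.77 induced, against 10.07 and 10.08 repressed, and in dnSnf2h cells 9.59 and 9.79 induced, against 10.02 and 10.31 repressed. All 6 induced arrays were below all 6 repressed arrays. Baz1b fell by 0.50 in dnBrg1 (limma adjusted p = 0.0063), by 0.33 in dnChd4 (limma adjusted p = 0.0497) and by 0.47 in dnSnf2h cells (limma adjusted p = 0.00751), and by 0.44 in the mean (SE 0.064; limma adjusted p = 7.4e-05), and the mean call held under every alternative tried. The call in dnBrg1 was lost without dnBrg1 repressed replicate 1 or either induced array, that in dnSnf2h without dnSnf2h repressed replicate 2 or induced replicate 1, and that in dnChd4 without any 1 dnChd4 or dnBrg1 array. The dnChd4 call was also lost with the replicate block or median centring. In the fit on only the lines compared, the dnSnf2h call was lost too. The control change was -0.07 with 17 arrays and -0.57 with 15 arrays.

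Its paralog Baz1a, a subunit of the ACF and CHRAC complexes, went the other way, with a rise of 0.34 in dnSnf2h cells (SE 0.093; limma adjusted p = 0.018) and of 0.22 in the mean (SE 0.054; limma adjusted p = 0.00481). The dnSnf2h call was lost without dnSnf2h repressed replicate 2 or either induced array, and with array weights or only the lines compared. Within arrays, Baz1b minus Baz1a was lower in induced than in repressed arrays by 0.60, 0.56 and 0.81 log2 units in dnBrg1, dnChd4 and dnSnf2h cells, with no overlap in any line. In the control line Baz1a changed by -0.07 with 17 arrays and by -0.01 with 15 arrays.

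Rsf1, the large subunit of the RSF complex, read 8.59 and 8.79 in induced dnBrg1 arrays, against 8.53 and 8.36 in repressed ones. Its dnChd4 values were 8.38 and 8.41 induced against 8.14 and 8.06 repressed, and in dnSnf2h cells 8.40 and 8.65 induced against 7.94 and 8.07 repressed. The gap between induced and repressed arrays was narrowest in dnBrg1 and widest in dnSnf2h cells. Rsf1 rose by 0.52 in dnSnf2h cells (SE 0.111; limma adjusted p = 0.00413), a call lost without dnSnf2h induced replicate 2 or with only the lines compared, and by 0.35 in the mean (SE 0.064; limma adjusted p = 0.000495). The histone-fold subunits Pole3 and Chrac1 pair with each other in CHRAC, yet Pole3 fell and Chrac1 rose. Pole3, also a subunit of a replicative DNA polymerase, read 8.49 and 8.50 in induced dnBrg1 arrays against 8.62 and 8.58 in repressed ones, and 7.96 and 8.13 in induced dnChd4 arrays against 8.45 and 8.49 in repressed ones. In dnSnf2h cells it read 8.14 and 8.17 induced, against 8.29 and 8.35 repressed.

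Pole3 was lower in induced arrays of each line, most so in dnChd4 cells, where it fell by 0.42 (SE 0.091; limma adjusted p = 0.00418), a call lost without dnChd4 induced replicate 1. Its mean fall was 0.23 (SE 0.052; limma adjusted p = 0.00296). Chrac1 rose by 0.20 in the mean (SE 0.061; limma adjusted p = 0.0177), a call lost without dnBrg1 repressed replicate 2. Bptf, the large subunit of NURF that reads methylated histone H3, rose by 0.23 (SE 0.073; limma adjusted p = 0.0278), a call lost without any 1 array other than replicate 1 of dnBrg1 repressed and dnChd4 repressed, replicate 2 of dnSnf2h repressed and replicate 1 of dnSnf2h induced. The remaining ISWI members, Baz2b and Cecr2, did not pass, and Cecr2 was the 1 member among the dimmest 30% of genes, at 4.08 to 4.47 over the dominant-negative arrays.

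**Figure D2:**
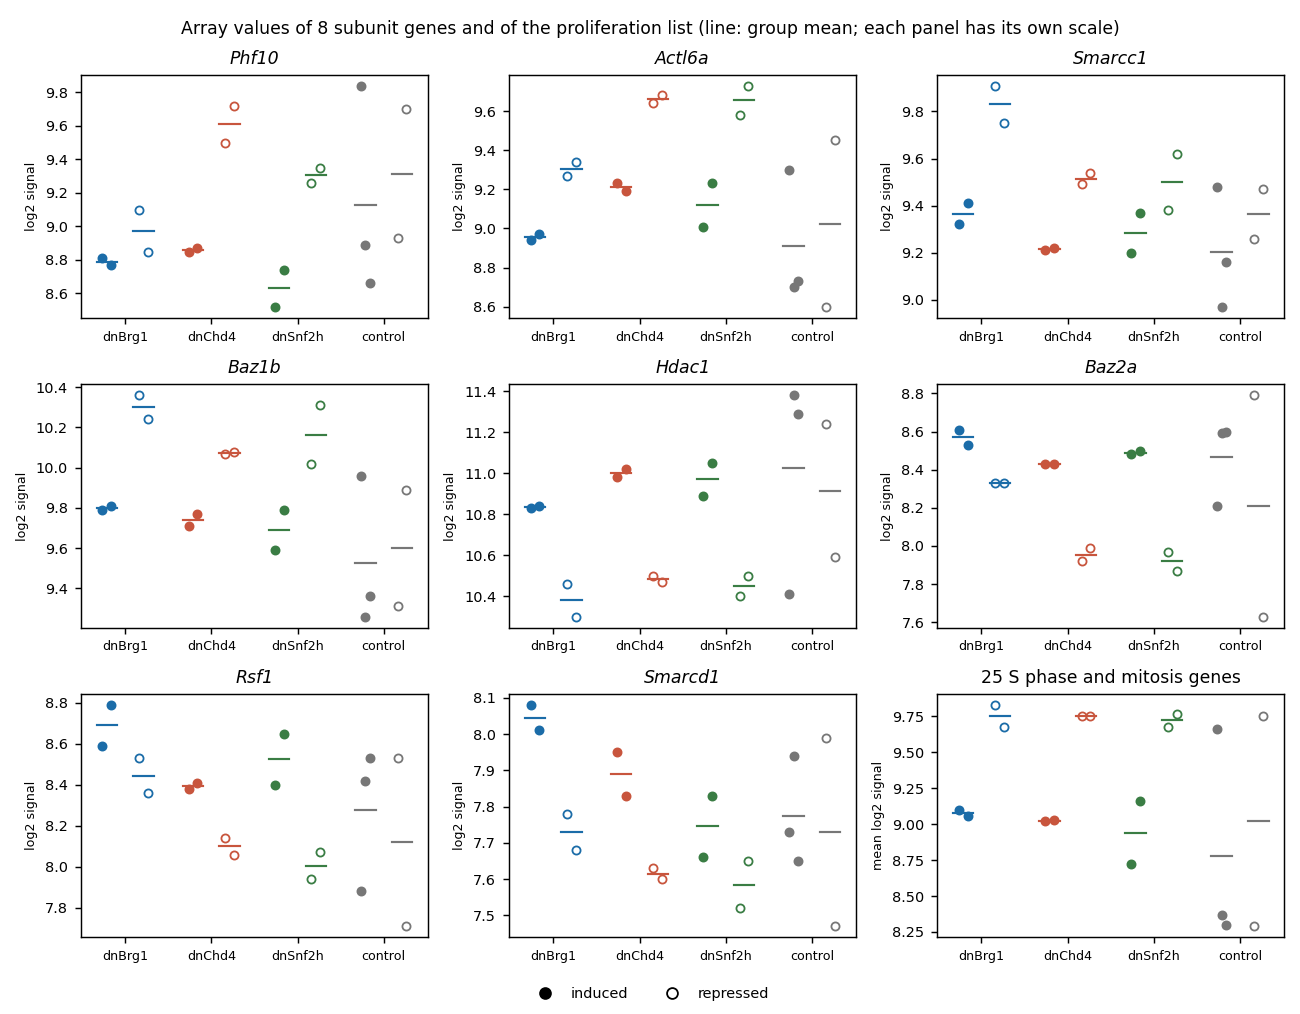
Signal of 8 subunit genes and, in the last panel, the mean signal of 25 S phase and mitosis genes in each of the 17 arrays (y axis, log2 signal, with a scale of its own per panel); filled points are induced and open points repressed arrays, by line, and lines are group means. In the 3 dominant-negative lines the induced and repressed points do not overlap in any panel. The genes were chosen with results of these data known. Of all genes, 21.7% lay apart in the same direction in all 3 lines. Points of the control line overlap in every panel with all 17 arrays, which include the pair of libraries that went against their labels. Without that pair, induced control arrays read 8.89 and 8.66 for Phf10, against 9.70 repressed. Hdac1 read 11.38 and 11.29 against 10.59, and the list mean 8.37 and 8.30 against 9.75. Baz1a, which has no panel here, did not separate, at 8.56 and 8.67 against 8.63.

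Without any model, 15 of the 41 members (36.6%) had induced arrays on the same side of repressed arrays, with no overlap, in all 3 dominant-negative lines, against 21.7% of all genes. Of these, 6 were higher (Smarcd1, Smarcd2, Hdac1, Baz1a, Baz2a and Rsf1) and 9 lower (Smarcc1, Actl6a, Phf10, Mta1, Mbd3, Rbbp7, Cdk2ap1, Baz1b and Pole3). In single lines 26 members did not overlap in dnBrg1, 31 in dnChd4 and 26 in dnSnf2h cells, where 53.4%, 60.1% and 46.4% of all genes did not. Signs were positive in all 3 lines for 12 members, negative for 15 and mixed for 14. The matching shares of all genes were not counted, so these signs are not a result particular to the members. The non-overlap count was added after the data were seen.

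No member passed in the test of a difference between inductions: 0 of 41 for dnBrg1 minus dnChd4, where 1.27% of all genes passed, 0 for dnBrg1 minus dnSnf2h (0.632% of all genes) and 0 for dnChd4 minus dnSnf2h (0.13%). At an unadjusted limma p under 0.05 the counts were 7, 4 and 1, where 9.82%, 10.0% and 7.43% of all genes lay under it. Phf10 came nearest, with a difference of 0.56 between the dnBrg1 and dnChd4 inductions (SE 0.160; limma adjusted p = 0.131) and of 0.48 between dnBrg1 and dnSnf2h (SE 0.160; limma adjusted p = 0.264). Phf10 means were 8.79 in induced dnBrg1 and 8.86 in induced dnChd4 arrays, but 8.98 and 9.61 in repressed ones. The comparison of repressed lines below uses the same repressed arrays, so the Phf10 results are not separate. Mta3 was nearest for dnChd4 minus dnSnf2h, at 0.42 (SE 0.146; limma adjusted p = 0.525). The 95% interval of such a difference reached 0.32 to either side at the median member, and for Phf10 it ran from 0.22 to 0.90 (dnBrg1 minus dnChd4). Missing the threshold does not show that the inductions act alike on these genes. The first 2 of these comparisons share the dnBrg1 arrays.

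The control line, in which induction brings the transactivator alone, was read in the same way. With all 17 arrays 0 of 41 members passed on control induction (0.0% of all genes), and 1 member and 4.24% of all genes had an unadjusted limma p under 0.05. With 15 arrays 18 members passed, 9 higher and 9 lower, where 26.6% of all genes did (15.4% higher, 11.2% lower). The 2 libraries were left out for how their values lay, so the 15-array counts describe the remaining 1 repressed and 2 induced control arrays and are no independent evidence. Of the 19 members that passed in the mean induction, 15 changed with the same sign in the control line with 17 arrays and 18 with 15 arrays, Baz1a being the exception in the second count. The matching share of all genes was not counted, so these sign counts are not a result particular to the members.

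Set against the control induction directly, no member passed with 17 arrays in dnBrg1 (0.0903% of all genes), dnChd4 (0.0401%) or dnSnf2h cells (0.0%), and 1, 2 and 1 members had an unadjusted limma p under 0.05, where 5.67%, 3.87% and 5.62% of all genes did. With 15 arrays 5 members passed for dnBrg1, 2 higher and 3 lower (6.95% of all genes, 2.93% higher and 4.02% lower), and 0 for dnChd4 (0.818%) or dnSnf2h (2.08%), which share the control arrays. These 15-array calls rest on 1 repressed control array, assumed to vary like the other groups, and are given as a description. The dnBrg1 change lay above the control change by 0.73 for Phf10 and by 0.56 for Pole3. It lay under the control change for Baz2a (-0.73), Arid2 (-0.71) and Smarcd3 (-0.60). With 17 arrays the same 5 differences were -0.01, -0.06, -0.02, -0.21 and -0.26.

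Proliferation genes also changed on induction. Of 25 S phase and mitosis genes measured, 24 fell in the mean induction (Ccne1, named after its value was seen, changed by 0.05), with a median of -0.74. Cenpa fell by 0.81, Aurkb by 0.88 and Mcm7 by 0.84. Their mean log2 signal was 9.06 to 9.10 in induced against 9.68 to 9.83 in repressed dnBrg1 arrays, 9.02 to 9.03 against 9.75 in dnChd4 arrays and 8.72 to 9.16 against 9.68 to 9.77 in dnSnf2h arrays. In the control line it was 9.66, 8.37 and 8.30 in arrays labelled induced, against 8.29 and 9.75 in those labelled repressed. The list was low in the control arrays where Phf10, Actl6a and Baz1b were low and Hdac1 and Baz2a high. Other members that passed did not split the control arrays this way, namely Baz1a, Smarcd1, Dpf1, Chrac1 and Bptf. Baz1a read 8.56, 8.67 and 8.70 where the list was low, against 8.55 and 8.63 where it was high. The genes named here were chosen after their values were seen. The part of the list in the members' changes was not tested.

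Marker lists of cell types moved less evenly. Of 10 mesenchymal markers 7 fell in the mean induction (Snai2 by 1.31, Col1a2 by 0.55, Zeb2 by 0.37), and their mean signal was 9.08 to 9.11 against 9.57 to 9.63 in dnBrg1, 9.51 to 9.57 against 9.63 to 9.70 in dnChd4 and 9.13 to 9.35 against 9.50 to 9.62 in dnSnf2h arrays, induced against repressed. Of 11 mammary epithelial markers 1 rose (Krt7, by 0.25) and 2 fell (Krt14 by 1.24, Cldn4 by 0.22), and their mean signal lay between 5.22 and 5.58 in all 17 arrays. Of 6 leukocyte and macrophage markers 1 fell (Cd3e, by 0.17), and 0 of 4 adipocyte and 0 of 6 neuronal markers passed, with 1 adipocyte and 0 neuronal markers at an unadjusted limma p under 0.05. The part of these lists in the members' changes was not tested.

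**Figure D3:**
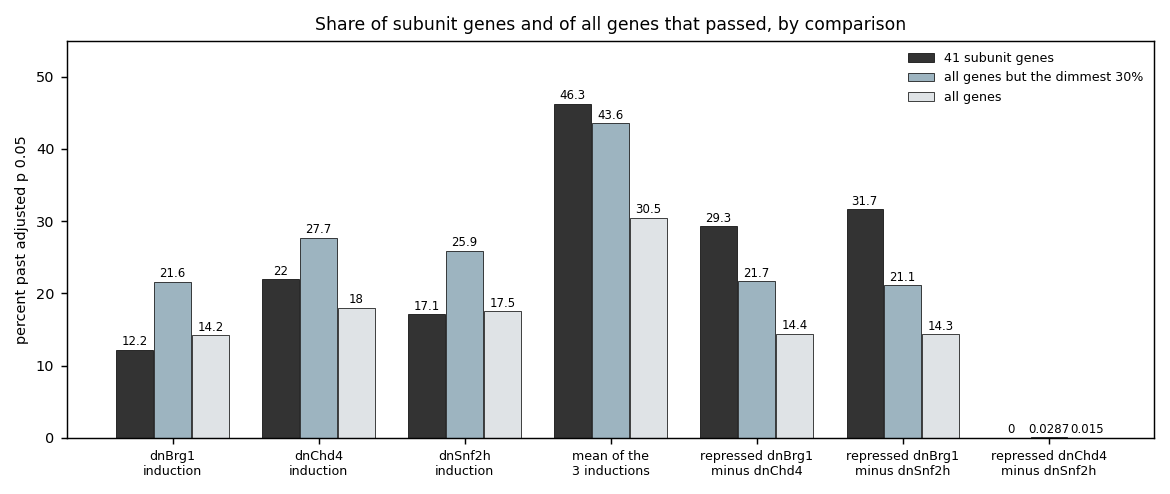
Percent of genes past a limma adjusted p of 0.05 in each comparison among the dominant-negative lines (y axis), for the 41 accessory subunit genes, for all genes but the dimmest 30%, and for all 19938 genes. On induction the members' bars lie at 12.2, 22, 17.1 and 46.3 percent, and between repressed lines at 29.3, 31.7 and 0 percent.

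Members also differed between lines before induction, in cells repressed by tetracycline. Between repressed dnBrg1 and repressed dnChd4 cells 12 of 41 members passed, 6 higher and 6 lower in dnBrg1, where 14.4% of all genes passed (8.07% higher, 6.35% lower). Between repressed dnBrg1 and repressed dnSnf2h cells 13 passed, 6 higher and 7 lower, against 14.3% of all genes (7.61% higher, 6.72% lower), and these 2 comparisons share the dnBrg1 arrays. With the dimmest 30% of genes left out of the fit, 15 of 40 members and 21.7% of genes passed against dnChd4. Against dnSnf2h, 14 of 40 members and 21.1% of genes did. Between repressed dnChd4 and repressed dnSnf2h cells 0 passed, against 0.015% of all genes, with 2 members and 7.92% of all genes at an unadjusted limma p under 0.05 and Phf10 nearest (0.31; limma adjusted p = 0.54).

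Baz2b, a bromodomain protein related to Baz2a, read 8.15 and 7.92 in repressed dnBrg1 arrays, against 7.41 and 7.22 in repressed dnChd4 and 7.24 and 7.60 in repressed dnSnf2h arrays. Both dnBrg1 arrays were above the arrays of the other lines. Baz2b was higher in dnBrg1 than in dnChd4 cells by 0.72 (SE 0.123; limma adjusted p = 0.00101) and than in dnSnf2h cells by 0.61 (SE 0.123; limma adjusted p = 0.0035), and the second call was lost without dnBrg1 repressed replicate 1. Arid2, which marks the form of SWI/SNF that holds Pbrm1, read 9.07 and 8.92 in repressed dnBrg1, 8.51 and 8.43 in repressed dnChd4 and 8.34 and 8.60 in repressed dnSnf2h arrays. It too was highest in dnBrg1, by 0.53 (SE 0.104; limma adjusted p = 0.00306) over dnChd4 and by 0.52 (SE 0.104; limma adjusted p = 0.00337) over dnSnf2h.

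Phf10 differed most on the lower side, with 9.10 and 8.85 in repressed dnBrg1 arrays against 9.50 and 9.72 in repressed dnChd4 arrays, a difference of -0.63 (SE 0.113; limma adjusted p = 0.00143). The same repressed arrays enter its difference between the dnBrg1 and dnChd4 inductions above. Ss18 read 7.41 and 6.95 in repressed dnBrg1, 7.71 and 7.60 in repressed dnChd4 and 7.57 and 7.90 in repressed dnSnf2h arrays. Ss18 was lower in dnBrg1 than in dnSnf2h cells, a difference of -0.56 (SE 0.142; limma adjusted p = 0.0163), a call lost without dnBrg1 repressed replicate 2, its low array, without dnSnf2h repressed replicate 2, or with array weights. Smarcc2, the paralog of the scaffold gene Smarcc1, read 9.73 and 9.55 in repressed dnBrg1, 9.25 and 8.98 in repressed dnChd4 and 8.95 and 9.27 in repressed dnSnf2h arrays. It was higher in dnBrg1 than in dnSnf2h cells by 0.53 (SE 0.126; limma adjusted p = 0.0111), a call lost without replicate 1 of either group or with array weights.

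Mta2 was the member whose calls held under every alternative in both pairs. It read 9.64 and 9.58 in repressed dnBrg1, 9.15 and 9.19 in repressed dnChd4 and 9.19 and 9.15 in repressed dnSnf2h arrays, differences of 0.44 (SE 0.086; limma adjusted p = 0.00282) and 0.44 (SE 0.086; limma adjusted p = 0.00303). Brd7, a bromodomain subunit of the form with Arid2, held likewise for dnBrg1 minus dnChd4 (-0.46; limma adjusted p = 0.00305). The others that passed against dnChd4 were Smarcc2 (0.52), Chrac1 (0.46) and Baz2a (0.38) on the higher side and Ss18 (-0.48), Hdac2 (-0.41), Smarcb1 (-0.41) and Actl6a (-0.35) on the lower side. Against dnSnf2h they were Rsf1 (0.44) and Baz2a (0.41) higher and Gatad2b (-0.43), Smarcb1 (-0.38), Cecr2 (-0.38), Hdac2 (-0.37), Actl6a (-0.35) and Brd7 (-0.34) lower. Of these others, Baz2a and Cecr2 against dnSnf2h kept their calls without each array in turn (Cecr2 lost its call with array weights and, at 4.08 to 4.47, lies among the dimmest 30% of genes), and each of the rest lost it without at least 1 of the repressed arrays compared. With all 17 arrays the counts were 2 and 2, where 4.03% and 3.89% of all genes passed: Brd7 and Mta2 against dnChd4, and Mta2 and Cecr2 against dnSnf2h.

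**Figure D4:**
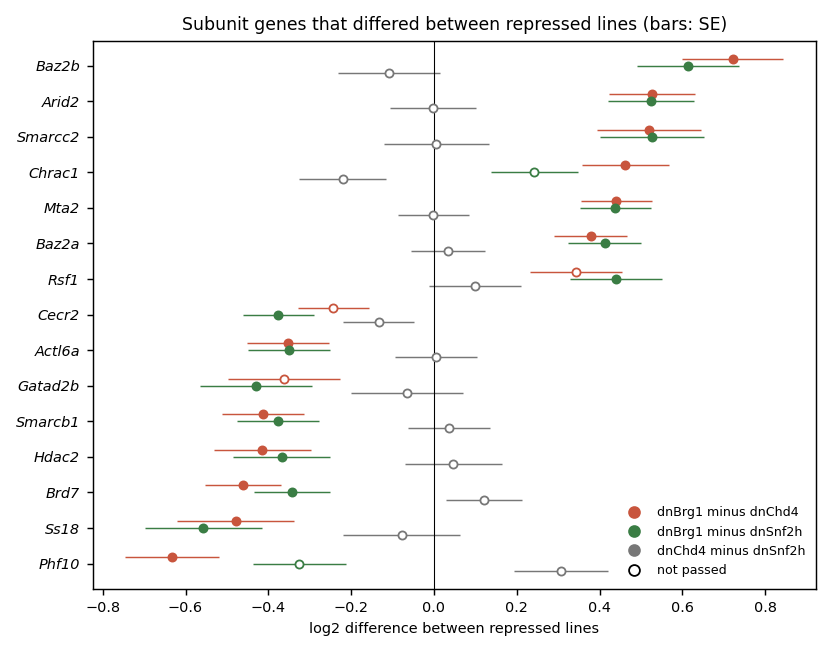
Log2 difference between repressed lines (x axis) for the 15 members that passed in at least 1 pair; points are differences of 2 and 2 arrays, bars are SE, and open points did not pass at a limma adjusted p of 0.05. Points of dnBrg1 minus dnChd4 and of dnBrg1 minus dnSnf2h, which share the dnBrg1 arrays, run from 0.72 for Baz2b to -0.63 for Phf10, and those of dnChd4 minus dnSnf2h lie within 0.31 of 0.

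Among the motors, which the subunits above serve, Chd3, the NuRD motor related to Chd4, rose in all 3 dominant-negative lines, by 0.53 in dnBrg1, 0.56 in dnChd4 and 0.38 in dnSnf2h cells (limma adjusted p = 0.00265, 0.00126 and 0.0158). Its control change was -0.02 with 17 arrays and 0.43 with 15 arrays. Smarca2, the alternative SWI/SNF motor, fell by 0.68 in dnBrg1 cells (SE 0.131; limma adjusted p = 0.00275), where it read 8.69 and 8.73 induced against 9.52 and 9.24 repressed, above the repressed arrays of the other dominant-negative lines. In repressed cells Smarca2 was higher in dnBrg1 than in dnChd4 and dnSnf2h lines by 0.88 and 0.70, and Smarca5 lower, with differences of -0.67 and -0.65. Over the mean induction 4 of 7 motors passed, Chd4 (0.52) and Chd3 (0.49) higher, Smarca2 (-0.29) and Chd5 (-0.19; named after its value was seen) lower, while Smarca4, Smarca5 and Smarca1 changed by 0.05, -0.17 and -0.08 without passing. The Chd4 mean comes from the dnChd4 line, since Chd4 changed by -0.22 in dnBrg1 and -0.04 in dnSnf2h cells without passing.

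Other subunits and partners of these complexes, 20 genes outside the 41, had 3 that rose (Bcl7b by 0.33, Ss18l1 by 0.23, Zfp592 by 0.19) and 2 that fell (Cdk2ap2 by 0.25, Bcl7a by 0.20) in the mean induction. Of 27 genes of the INO80, SRCAP and TIP60 complexes 7 rose and 5 fell. Ruvbl2 and Ruvbl1, the paired AAA ATPases of these complexes, fell by 0.70 and 0.54, and Mcrs1, an INO80 subunit, rose by 0.39. Actl6a, which fell in every dominant-negative line, is also a subunit of these complexes.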

How the data were processed

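Log2 signals of 35557 probe sets on 17 arrays were used as the authors deposited them, and Affymetrix Expression Console is named per the submitters' processing notes; neither its version nor the way probes were summarized, nor a build, is given in the sources used here. Array medians ran from 5.48 to 5.63, so no further normalization was applied. Probe sets with 1 gene symbol in the platform annotation (21789) were kept, 1621 with several and 12147 with none were left out, and the probe set of highest mean signal stood for its gene.

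Groups were compared with limma 3.58.1 in R 4.3.3, with Benjamini-Hochberg adjustment over 19938 genes, on the 12 arrays of the dominant-negative lines, or on all 17 where the control line enters. The script was checked on simulated data. The number of arrays limits the precision.

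Values of every dominant-negative array are given for the 4 genes of each complex with the smallest adjusted p in the mean induction. These genes were thus chosen by that outcome. In the text, control array values are printed only for Phf10, Smarcc1 and Hdac1 among them, and control changes only for some others. Changes are given for other members that passed, and non-passing members are named as the nearest or farthest or as paralogs. The members and all lists were chosen with earlier results of these data known. Alternatives were a replicate block, trended and robust variance, array weights, a filter on dim genes, quantile normalization, median centring, the mean of probe sets, other sets of arrays, and each array or line left out. The non-overlap count was added after seeing the data.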

Additional observations from a re-analysis of the deposited data

Results flagged for a closer look

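Among the motor and marker genes read beside the 41, the difference between 2 inductions itself passed the limma test for 2 genes. The Chd4 change was 1.82 in dnChd4 cells and differed from that in the other lines: dnBrg1 minus dnChd4 was -2.04 (SE 0.161; limma adjusted p = 5.23e-06), dnChd4 minus dnSnf2h was 1.86 (SE 0.161; limma adjusted p = 5.27e-05) and dnChd4 minus control with 17 arrays was 1.83 (SE 0.168; limma adjusted p = 0.000389). Cd68, a macrophage marker, read 5.86 and 5.80 in induced against 6.49 and 6.14 in repressed dnBrg1 arrays, and 6.86 and 6.66 in induced against 5.93 and 5.54 in repressed dnChd4 arrays, a difference of -1.51 between the inductions (SE 0.193; limma adjusted p = 0.000599). The other markers of its list did not follow it. Ptprc, Adgre1, Csf1r and Itgam lay under 4.77 in all 17 arrays. Cd3e read 5.47 and 5.48 in induced against 5.70 and 5.75 in repressed dnChd4 arrays, the other way from Cd68. None of the 41 accessory subunit genes was among the genes whose difference passed here.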

How the results depend on the processing

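Of 65 member changes past the threshold, 0 changed sign under any alternative, 5 passed under every one and 58 no longer passed with all 17 arrays. The counts of members that passed moved by over 1.5 times as follows. With all 17 arrays they were 0 in dnBrg1, 0 in dnChd4 and 0 in dnSnf2h cells, 3 in the mean induction, and 2 and 2 for repressed dnBrg1 minus dnChd4 and minus dnSnf2h. Array weights gave 8 in dnBrg1 cells (17.7% of all genes), 17 in dnChd4 cells (26.4%), 1 for the dnBrg1 minus dnChd4 difference between inductions (2.76%) and 4 for repressed dnBrg1 minus dnSnf2h (7.28%). Quantile normalization gave 10 in dnBrg1 cells (17.1% of all genes) and 11 in dnSnf2h cells (21.1%). Fits on only the lines compared gave 16 in dnChd4 cells (20.9% of all genes), 4 in dnSnf2h cells (7.25%) and 8 for repressed dnBrg1 minus dnSnf2h (10.4%; 6 higher, 2 lower). Without the dnChd4 line the mean induction had 11 (21.2% of all genes). With 15 arrays the control induction had 18 and dnBrg1 minus control 5. The cause of these moves was not tested. In dnBrg1 cells median centring gave 2 members higher and 2 lower, where of all 19938 genes 1663 were higher and 925 lower.

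With each array left out in turn the count was 1 to 8 in dnBrg1 cells (lowest without dnBrg1 repressed or induced replicate 1, and 2 without dnBrg1 induced replicate 2; highest without either dnSnf2h repressed array). It was 4 to 12 in dnChd4 cells (4 without dnChd4 repressed replicate 2, 5 without each other dnChd4 array, 12 without either dnSnf2h repressed array), 5 to 10 in dnSnf2h cells and 14 to 24 in the mean induction. For repressed dnBrg1 it was 6 to 15 minus dnChd4 (6 without either dnChd4 repressed array) and 7 to 13 minus dnSnf2h (7 without dnBrg1 repressed replicate 2, 8 without replicate 1). It was 0 to 1 for dnBrg1 minus dnChd4 between inductions (1 without dnBrg1 repressed replicate 2) and 0 in the other comparisons. Over the same fits the share of all genes ran from 6.79% to 17.2% in dnBrg1, 9.66% to 21.0% in dnChd4 and 11.7% to 21.1% in dnSnf2h cells, and 26.1% to 33.3% in the mean induction. Between repressed lines it ran from 6.75% to 17.6% for dnBrg1 minus dnChd4, 8.95% to 16.9% for dnBrg1 minus dnSnf2h and 0.0% to 2.51% for dnChd4 minus dnSnf2h. Between inductions it ran from 0.532% to 1.92% (dnBrg1 minus dnChd4), 0.231% to 1.33% (dnBrg1 minus dnSnf2h) and 0.0752% to 0.878% (dnChd4 minus dnSnf2h). In comparisons with the control line it reached at most 0.301%. Of the mean induction calls, 5 were lost without the dnBrg1 line (Smarcd1, Dpf1, Mta3, Mbd3, Chrac1), 8 without the dnChd4 line (Dpf1, Dpf2, Mta1, Mta3, Mbd3, Bptf, Pole3, Chrac1) and 3 without the dnSnf2h line (Mbd3, Baz1a, Bptf).

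Same-numbered arrays of a line deviated together with r = 0.016 in dnBrg1, 0.135 in dnChd4 and 0.313 in dnSnf2h cells, so the numbers were not taken to pair the arrays. The replicate block gave 4, 7, 7 and 18 members in dnBrg1, dnChd4, dnSnf2h cells and the mean induction, 12, 11 and 0 between repressed lines, and 0 in the remaining comparisons, and 6 of the 65 calls were lost under it. Of all 19938 genes, 1500 were higher and 1176 lower under it in dnBrg1, and 2153 and 1310 in dnChd4 cells. The counts were 1729 and 1584 in dnSnf2h cells, and 3289 and 2623 in the mean induction. For repressed dnBrg1 they were 1524 and 1194 minus dnChd4, and 1392 and 1226 minus dnSnf2h. By signal, 1 member (Cecr2) lay among the dimmest 30% of genes.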
